A study of Mus musculus with 14 samples.

Results

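Genes of bile acid synthesis and handling were followed in H3K9ac maps of regenerating mouse liver: Cyp7a1, Cyp8b1, Cyp7b1, Cyp27a1, Cyp2c70, Baat, Abcb11, Slc10a1, Nr1h4 and Nr0b2. They are 10 of 21887 protein-coding genes of the RefSeq table used. They were chosen for their known roles, but with earlier results of these data known. For each gene, all called peaks that overlap its RefSeq span extended by 10 kb on either side (its window) were collected. H3K9ac, acetylation of histone H3 at lysine 9, is a mark of active promoters and enhancers, and it was measured by chromatin immunoprecipitation and sequencing (ChIP-seq) with an antibody to the acetylated residue. The series asked how postponing the drop in blood glucose after partial hepatectomy (surgical removal of part of the liver) affects this mark.

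All libraries came from male C57BL6/J mice of 2 to 3 months, whose regenerating liver was taken 12 h after the operation. No group without the operation was analysed here, and no genetic change is given for any group. Libraries bear the title d22 (6 libraries) or pbs (6 libraries). The titles go against the treatment field: d22 libraries are recorded there as vehicle (diluted PBS), and pbs libraries as dextrose, 22.5% in vehicle. Libraries are therefore named by title only, each difference is d22 minus pbs, and none is ascribed to dextrose or to vehicle. Whether each library is a separate animal is not given, so the p-values speak for the spread among these libraries, part of which may be technical. Each title group was called against a pooled input of its own, so an effect of that input on which peaks were listed, and how wide, cannot be told apart from the group. Both inputs are recorded as dextrose, so the treatment field of the d22 input differs from that of the d22 libraries.

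Filtered depth was 6343891 to 13259411 tags per library. Library d22 4 had the fewest tags and the most peaks, 44585 against 26352 to 30780 in the other 11, so results are also given without it where it matters. Tags were 48 bp long in pbs 1, pbs 4 and pbs 6 and 49 bp in all others, so the shorter tags occurred in 1 title group only. Windows of 7 hepatocyte marker genes all had peaks in every library, with a summed level of 467 to 600 CPM (tags in peaks per 1000000 filtered tags of the library, with TMM scaling) in d22 and 550 to 649 in pbs. Of the 7, 0 passed the test of the groups (edgeR, 3 at unadjusted p under 0.05, beside 10.8% of all tested windows). In 6 of the 7 the log2 difference was negative, with a median of -0.13. The biliary markers Krt19, Krt7, Epcam and Cftr, the leukocyte markers Ptprc and Cd3e, and the neutrophil markers S100a8, S100a9 and Ly6g had no peak in any library. Summed levels of 5 endothelial markers were 31.9 to 72.0 CPM in d22 and 22.7 to 46.2 in pbs, those of 5 macrophage markers 42.0 to 59.0 and 44.7 to 54.3, and those of 5 stellate markers 0 to 6.56 and 1.41 to 6.26, where a gene without a peak added nothing to the sum. Library d22 4 gave the lowest hepatocyte sum of d22 and its highest endothelial, macrophage and stellate sums. These ranges are not given without it. Of the 5 endothelial and macrophage markers with a peak in all libraries, 0 passed (edgeR, 0 at unadjusted p under 0.05). The 4 endothelial ones had a median log2 difference of 0.27, with 1 negative, and the 1 macrophage marker was at -0.13. The part of other cell types in the results below was not tested.

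Hepatocytes make bile acids from cholesterol along a classic route that starts at Cyp7a1 and an alternative route that starts at Cyp27a1 and goes on through Cyp7b1. Cyp8b1 directs intermediates to cholic acid, Cyp2c70 makes the muricholic acids of mice, and Baat joins the products to taurine or glycine. Abcb11 pumps bile salts into the canaliculus, and Slc10a1 takes them up from sinusoidal blood. The bile acid receptor FXR, product of Nr1h4, induces Nr0b2 (SHP), a repressor that lowers the expression of Cyp7a1 and Cyp8b1.

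Of the 10 genes, 1 differed between the title groups by more than the spread of the libraries. Cyp2c70 carried more H3K9ac tags in d22, 18.6 ± 4.17 CPM against 7.31 ± 2.38 (SD, n = 6 each). In all 12 libraries 9 of the genes had a peak and were tested, and 1 of the 9 passed (quasi-likelihood test of edgeR, p under 0.05 after Benjamini-Hochberg adjustment). Over all 12419 windows that could be tested, 99 passed, which is 0.797%, with 41 higher and 58 lower in d22. Cyp27a1, Slc10a1, Cyp7b1, Nr1h4, Cyp8b1, Baat, Abcb11 and Nr0b2 did not pass, with log2 differences of -0.20 to 0.33. The median of the 9 differences was 0.03, beside 0.0052 over all windows. In bulk tissue, a change in the share of cells that carry the mark and a change in its amount per cell cannot be told apart. Cyp7a1 was called in too few libraries to be tested for tags.

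**Figure D1:**
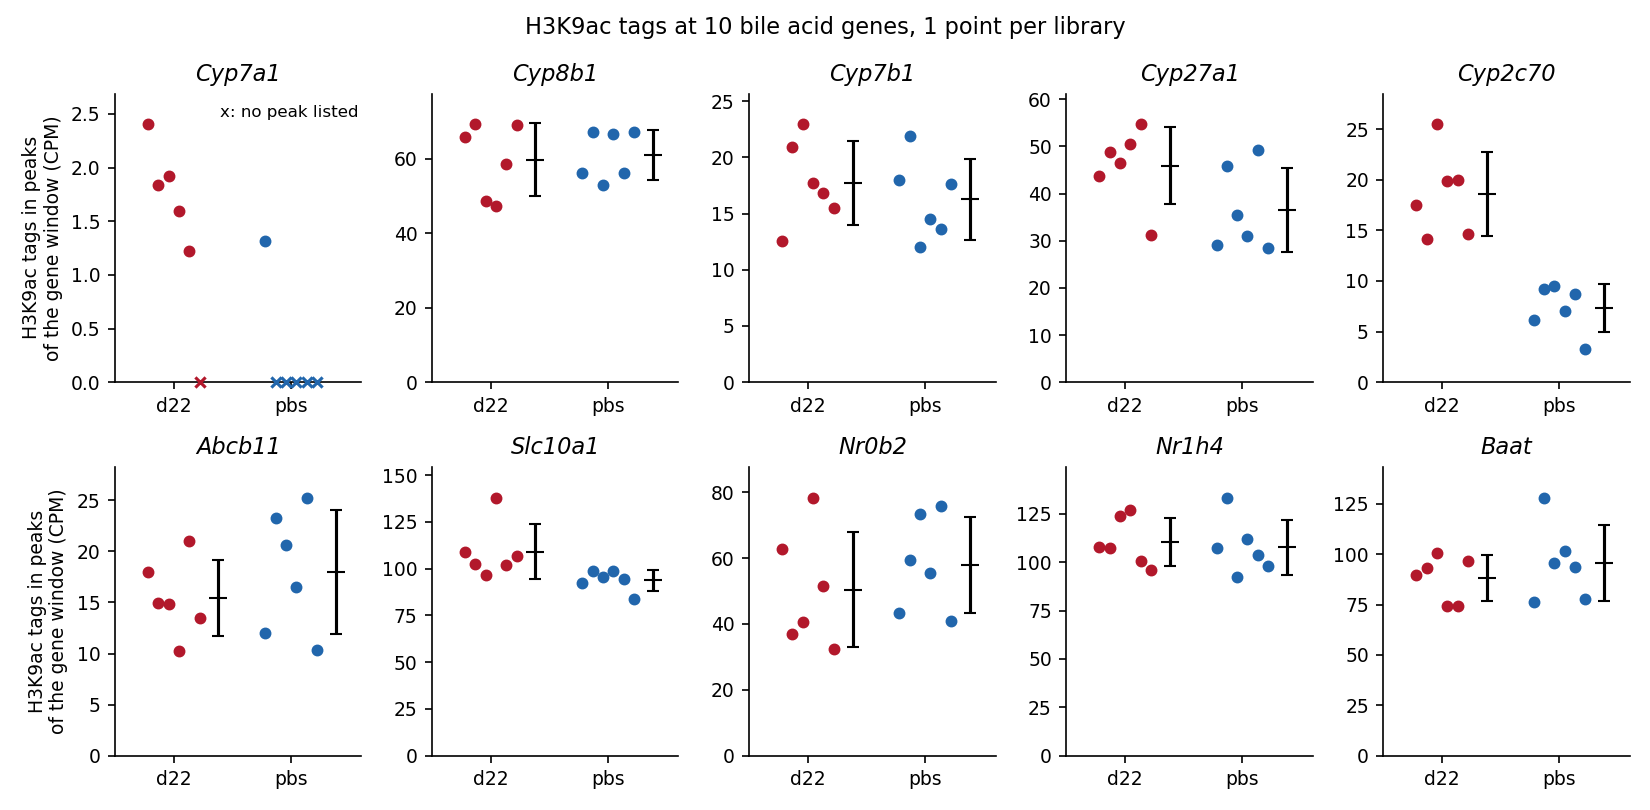
H3K9ac tags in the peaks of each gene window (vertical axis, CPM, starting at 0 with a scale of its own in each panel) for the 6 d22 and 6 pbs libraries, 1 point per library in replicate order, with mean and SD beside the points; a cross marks a library with no listed peak, which is a missing value and not a count of 0. In the Cyp2c70 panel all d22 points (14.2 to 25.5) lie above all pbs points (3.26 to 9.47), and in the other 8 panels with 12 points the groups overlap.

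Promoter sequence was at hand in RefSeq (GRCm38.p6, the assembly of mm10) for 7 of the 10 genes, with 8 listed start sites since Slc10a1 has a pair of them. The 250 bases upstream of the start are shown for the gene that differed, Cyp2c70, and for 3 for comparison: Cyp8b1, the other hydroxylase that sets which bile acid is made, Abcb11, the main exporter, and Nr0b2, the repressor. Each is written 5′ to 3′ in the direction of the gene, and capitals mark matches on either strand to the nuclear receptor motif AGGTCA, the E-box CACGTG, the TATAAA motif or the CCAAT motif.
Cyp2c70 (chr19:40187287-40187536, minus strand): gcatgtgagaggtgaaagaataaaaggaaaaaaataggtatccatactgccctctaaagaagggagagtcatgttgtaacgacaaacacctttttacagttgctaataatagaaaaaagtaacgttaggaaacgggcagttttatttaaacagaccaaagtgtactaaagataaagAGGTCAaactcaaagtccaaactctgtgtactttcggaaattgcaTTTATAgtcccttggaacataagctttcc
Cyp8b1 (chr9:121916306-121916555, minus strand): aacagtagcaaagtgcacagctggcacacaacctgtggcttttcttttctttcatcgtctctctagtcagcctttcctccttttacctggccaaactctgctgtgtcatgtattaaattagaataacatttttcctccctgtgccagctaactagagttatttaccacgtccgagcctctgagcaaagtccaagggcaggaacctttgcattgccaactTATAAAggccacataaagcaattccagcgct
Abcb11 (chr2:69342617-69342866, minus strand): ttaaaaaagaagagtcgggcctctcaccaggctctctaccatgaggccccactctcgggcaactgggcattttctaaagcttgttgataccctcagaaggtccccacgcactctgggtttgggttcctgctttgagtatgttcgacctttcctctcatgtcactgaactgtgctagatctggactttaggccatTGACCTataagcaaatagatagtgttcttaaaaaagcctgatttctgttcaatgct
Nr0b2 (chr4:133553126-133553375, plus strand): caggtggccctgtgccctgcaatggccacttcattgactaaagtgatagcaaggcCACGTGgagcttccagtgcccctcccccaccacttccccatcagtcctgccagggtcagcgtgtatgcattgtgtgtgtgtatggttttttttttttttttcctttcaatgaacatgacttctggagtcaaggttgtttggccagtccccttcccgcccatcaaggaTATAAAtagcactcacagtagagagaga

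Counted from the base before the start as -1, the Cyp2c70 promoter held an AGGTCA match at -74 to -69 and a TATAAA match on the opposite strand at -29 to -24. Cyp8b1 held TATAAA at -31 to -26, Abcb11 an AGGTCA match on the opposite strand at -56 to -51, and Nr0b2 an E-box at -195 to -190 and TATAAA at -28 to -23. In the full listed windows of 300 bases, which add 50 bases after the start, AGGTCA occurred in 4 of the 8 promoters of these genes and in 16.3% of all 32851 listed promoters, both strands searched. TATAAA occurred in 4 of the 8 and in 13.6% of all, CACGTG in 1 (Nr0b2) and in 7.15% of all, and CCAAT in 1 (Cyp27a1) and in 37.4% of all. The longer motif CAAGGTCA, which contains the AGGTCA motif, occurred in none of the 8 and in 1.56% of all. The inverted and the direct repeat of the AGGTCA motif with 1 base between, named here only, occurred in none of the 8 and in 0.00913% and 0.0396% of all. The Cyp2c70 window had a GC content of 37.7%, the lowest of the 8, against a median of 52.7% over all listed promoters, and the highest of the 8 was 55.3% at Cyp27a1. A match is a string of letters and not a binding site. A called peak overlapped the listed promoter in all 12 libraries for Cyp27a1, Cyp8b1, Abcb11, Slc10a1, Nr0b2 and Nr1h4, and in 6 d22 and 5 pbs libraries for Cyp2c70.

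Cyp2c70 (chromosome 19, 40153361 to 40187286, minus strand) held 124, a median of 175 and 291 tags in its lowest, middle and highest d22 library, against 50, 80 and 100 in pbs. Scaled for depth these were 14.2, 18.7 and 25.5 CPM in d22 against 3.26, 7.87 and 9.47 in pbs. Every d22 library lay above every pbs library, both in raw tags and in CPM. Groups without overlap in CPM occurred in 162 of 12419 windows, or 1.3%. The log2 difference was 1.37 ± 0.22 (SE), a 2.59-fold higher level in d22 (edgeR adjusted p = 0.0105). Leaving out each library in turn gave 1.21 to 1.46, and each of these 12 fits still passed (edgeR adjusted p = 0.00627 to 0.0358), the one without d22 4 included. Among libraries with 49 bp tags only, 6 d22 and 3 pbs, the difference was 1.03 and no longer passed (edgeR adjusted p = 0.0574). The 3 pbs libraries with 49 bp tags had 8.73 to 9.47 CPM and the 3 with 48 bp tags had 3.26 to 7.01, all below the lowest d22 library.

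Nearly all of the tags lay in 1 region over the start of the gene. The consensus region (peaks of all libraries merged) at chromosome 19, 40183352 to 40188092, held 99.1% of the window's tags, with 18.4 ± 4.11 CPM for d22 against 7.21 ± 2.25 for pbs (SD, n = 6 each; log2 difference 1.38 ± 0.21 SE, edgeR adjusted p = 0.00332). It was 1 of 124 regions that passed among 12375 with a peak in all 12 libraries, a share of 1%. With 49 bp tags only it still passed, at 1.04 (edgeR adjusted p = 0.0242). The only other region in the window was a 562 bp peak inside the gene in 1 library. Windows and regions were scaled separately, so their CPM differ slightly in scale. In d22 4, 110 tags of the region were 19.9 CPM, and 124 tags of the window were 19.8 CPM.

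Tags were summed within called peaks only, so a difference in called length is part of the difference in tags and not a separate result. The groups were apart at Cyp2c70 in this breadth. Peaks covered 3076, a median of 3571 and 4155 bp in the lowest, middle and highest d22 library, against 1196, 1837 and 2533 bp in pbs, with no overlap. How many of all windows had no overlap in length was not counted. At Cyp2c70 called length differed 2.04-fold (log2 1.03 ± 0.16 SE, beside 1.37 in tags), which did not pass over all windows (limma adjusted p = 0.120). For called length 0% of the 12419 windows passed (limma, 642 at unadjusted p under 0.05). Tags per kb of called peak, scaled as CPM, were 5.13 ± 0.755 for d22 against 4.04 ± 1.08 for pbs (SD, n = 6 each). These overlapped, and the log2 difference of 0.37 ± 0.15 (SE) did not pass either (limma adjusted p = 1.00). For tags per kb too, 0% of windows passed (limma, 240 at unadjusted p under 0.05).

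Relative to the listed start, the called signal of Cyp2c70 ran 3175 to 3934 bp into the gene in d22 (median 3380.5) and 1405 to 2485 bp in pbs (median 1747). The reach before the start overlapped, from -41 to 806 bp in d22 (median 325.5) and from -313 to 587 bp in pbs (median 76.5). A negative value means that the called peak began inside the gene. Summits of the highest peak lay at a median of 921 bp downstream of the start in d22 and 924.5 bp in pbs. In d22 1 and d22 3 the stretch was 1 unbroken peak of 3991 and 4155 bp. In d22 2, d22 4, d22 5 and d22 6 it was broken into a peak near the start and a separate one further inside, which began 1921 to 2588 bp and ended 3175 to 3923 bp from the start. That inner peak had 2.68 to 5.31 CPM and a fold enrichment of 7.26 to 8.85. Among pbs libraries, pbs 5 listed a peak from 1814 to 2485 bp with 1.83 CPM, and no other pbs library listed one that reached past 1779 bp. The near peak alone held 9.90 to 13 CPM in the 4 d22 libraries where it was separate, against 3.26 to 9.24 CPM for the largest peak of each pbs library. These peak-by-peak values were looked up after the difference was known and were not tested.

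**Figure D2:**
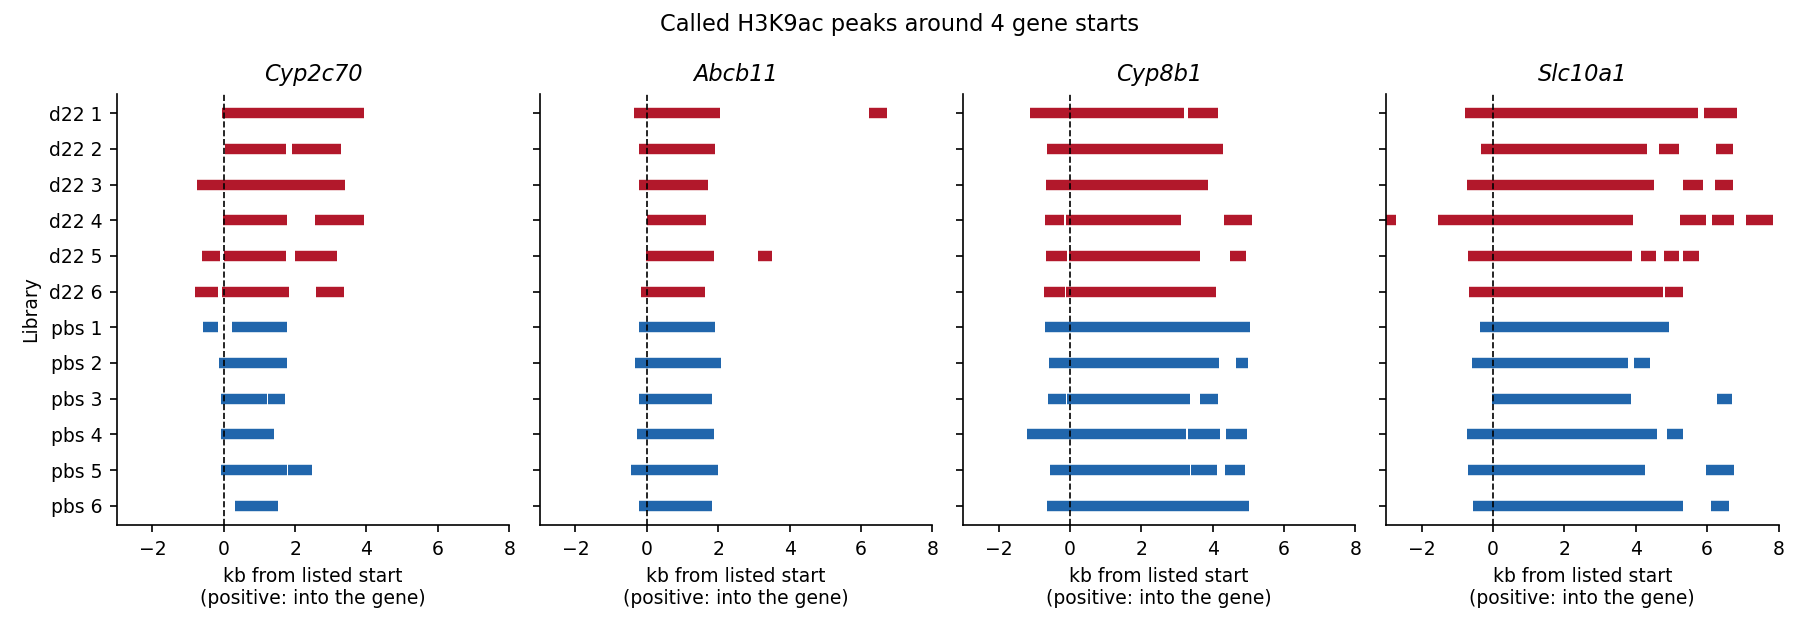
Called H3K9ac peaks of each library (lines; d22 in red, pbs in blue) by distance in kb from the listed start of Cyp2c70, Abcb11, Cyp8b1 and Slc10a1, positive into the gene, cropped to 3 kb before and 8 kb after the start. At Cyp2c70 all d22 libraries reached at least 3175 bp into the gene and no pbs library went beyond 2485 bp. At Abcb11 the peaks near the start ended 1624 to 2063 bp (d22) and 1823 to 2066 bp (pbs) into the gene. A separate inner Abcb11 peak was listed in d22 1 (6227 to 6724 bp) and d22 5 (3124 to 3514 bp), and in no pbs library.

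The height of the Cyp2c70 signal gave another picture than its tags. The highest fold enrichment over local background that the authors' caller gave within the window was 15.4 to 41.2 in d22 (median 24.9) and 19.2 to 29.1 in pbs (median 21.1). These ranges overlapped. With the tag-weighted mean fold enrichment in place of tags, the log2 difference of Cyp2c70 was 0.01 and not called (limma adjusted p = 0.959). By that measure 3367 windows, 27.1%, passed, only 139 of them higher in d22, and the median of all windows was -0.32. Relative to that median Cyp2c70 stood at 0.34. Fold enrichment is a ratio to a background that draws on each group's own input, so input and group cannot be told apart in it.

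**Figure D3:**
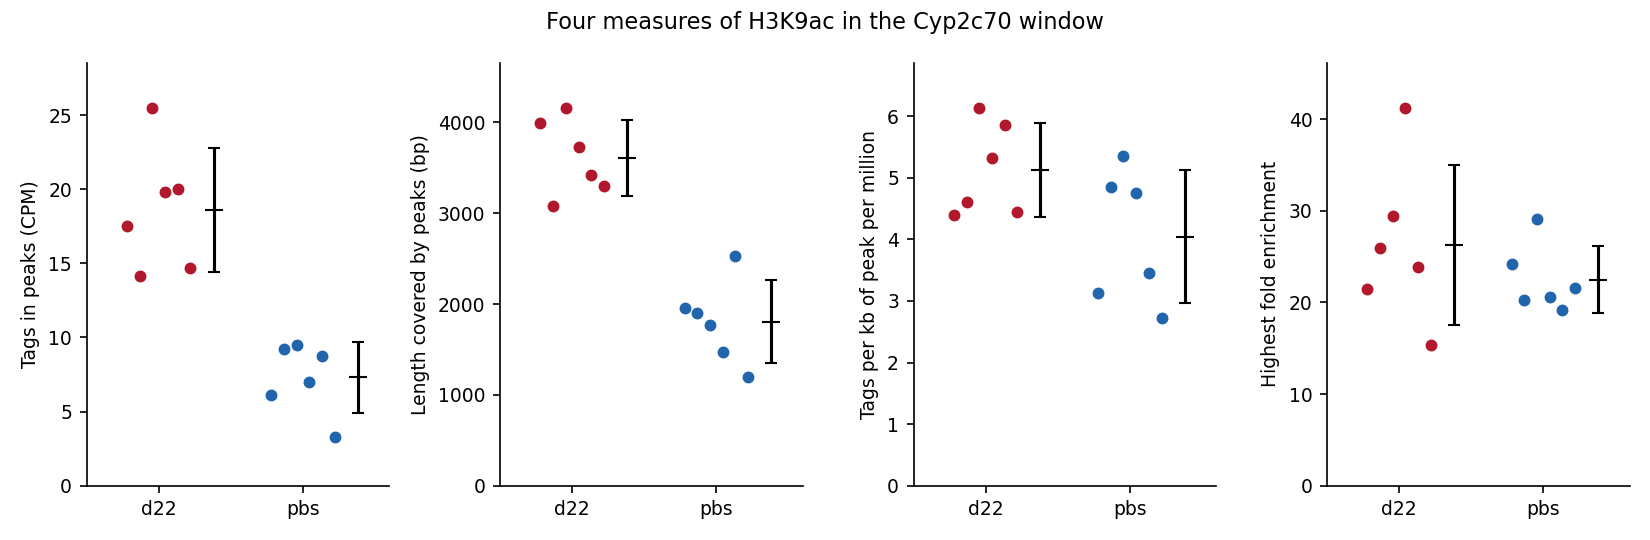
Tags (CPM), called length (bp), tags per kb of called peak (CPM per kb) and highest fold enrichment in the Cyp2c70 window, 1 point per library with mean and SD (n = 6 each), all axes from 0. The groups are apart in the first and second measure and overlap in the other pair, with fold enrichments of 15.4 to 41.2 in d22 and 19.2 to 29.1 in pbs.

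Cyp7a1, the rate-limiting enzyme of the classic route (chromosome 4, 6265612 to 6275632), had scarcely any called H3K9ac. Its window held a peak in 5 of 6 d22 libraries and 1 of 6 pbs libraries, with 10 to 30 tags in d22 and 20 tags in pbs 1, or 1.23 to 2.40 and 1.32 CPM. Library d22 6 and the other 5 pbs libraries listed no peak there, which gives no count for them. By library number, the window tags were 30, 20, 22, 10 and 12 in d22 1 to d22 5. A two-sided Fisher's exact test of 5 against 1 gave p = 0.0801 (n = 6 each, adjusted p = 1 over the 1952 windows called in 2 to 10 libraries). This occupancy test over windows was chosen after the data were seen, and 0% of those windows passed it (12 at unadjusted p under 0.05).

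The Cyp7a1 peaks did not fall at 1 place. A 547 bp region outside the gene, 2666 bp beyond its lower end, was called in d22 1, d22 2, d22 3 and pbs 1. A 583 bp region at the upper end of the gene was called in d22 1 and d22 5 only, and a 518 bp region 3333 bp beyond that end in d22 4 only. Fold enrichments of these peaks were 7.81 to 17.8, around the median peak of each library (0.667 to 1.18 times the library's median for the highest peak of each window). Among all consensus regions called in 2 to 10 libraries, 0% passed the occupancy test (Fisher's exact test, 0 of 16871, 99 at unadjusted p under 0.05), and for the first pair of Cyp7a1 regions the exact p was 0.545 and 0.455.

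Cyp8b1, the sterol hydroxylase of the cholic acid branch (chromosome 9, 121914356 to 121916305, minus strand), had 47.4 to 69.2 CPM in d22 (median 62.2) and 52.9 to 67.2 in pbs (median 61.4). The ranges nearly coincided, with a log2 difference of -0.03 ± 0.11 (SE, edgeR adjusted p = 0.955). Its principal region (the one in the gene with the most tags) covered the whole short gene, 6289 bp from 121911208 to 121917496, also held an end of Ackr2, and made up 65.9% of the window's tags. It had 37.6 ± 5.75 CPM for d22 against 42.0 ± 5.59 for pbs (SD, n = 6 each). A second region, 6400 bp beyond the upper end of the gene and with no gene end within 1 kb, went the other way, 17.7 ± 2.15 against 14.1 ± 1.92 CPM (SD, n = 6 each; log2 difference 0.32 ± 0.11 SE), but did not pass (edgeR adjusted p = 0.241). Its libraries overlapped, 14.4 to 20.4 CPM in d22 and 11.0 to 15.9 in pbs.

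On the alternative route, Cyp27a1, the mitochondrial sterol hydroxylase (chromosome 1, 74713148 to 74737897, plus strand), had 31.2 to 54.7 CPM in d22 (median 47.6) and 28.5 to 49.2 in pbs (median 33.2). Of the d22 libraries, 5 lay above the pbs median and d22 6 below it, and the log2 difference of 0.33 ± 0.16 (SE) did not pass (edgeR adjusted p = 0.463). With 49 bp tags only it was 0.08 (edgeR adjusted p = 0.906). Its principal region, over the start, had 39.7 ± 4.94 against 31.5 ± 5.79 CPM (SD, n = 6 each; log2 difference 0.34 ± 0.12 SE, edgeR adjusted p = 0.251). Cyp7b1, the oxysterol hydroxylase (chromosome 3, 18071944 to 18243890), had 12.6 to 22.9 CPM in d22 (median 17.3) and 12.0 to 21.9 in pbs (median 16.1). Its difference was within the spread (log2 0.12 ± 0.16 SE, edgeR adjusted p = 0.848). A region at the upper end of that long gene held 98.4% of its tags.

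Baat, the conjugating enzyme (chromosome 4, 49489416 to 49507915), had 74.1 to 100.7 CPM in d22 (median 91.5) and 76.4 to 127.9 in pbs (median 94.5). The log2 difference was -0.11 ± 0.12 (SE, edgeR adjusted p = 0.794). Here length and density had opposite signs, -0.31 ± 0.19 and 0.21 ± 0.15 (log2, SE), and neither passed (limma adjusted p = 0.983 and 1.00). The principal region at the upper end had 53.4 ± 6.95 and 53.6 ± 11.0 CPM (SD, n = 6 each), and the window also took in a region at an end of the neighbour Acnat1 with 31.6 ± 5.84 and 36.3 ± 5.94 CPM (SD, n = 6 each). The highest fold enrichment of d22 4 in this window was 131.5, against 39.9 to 62.6 in the other d22 libraries and 52.7 to 76.9 in pbs.

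Of the transporters, Abcb11, the canalicular bile salt export pump (chromosome 2, 69238282 to 69342616, minus strand), had 10.2 to 21.0 CPM in d22 (median 14.9) and 10.3 to 25.2 in pbs (median 18.6). The groups overlapped, and the log2 difference of -0.20 ± 0.22 (SE) did not pass (edgeR adjusted p = 0.795). A single peak region over the start held 98.2% of the tags. It extended 1624 to 2063 bp into the gene in d22 and 1823 to 2066 bp in pbs. By fold enrichment Abcb11 was lower in d22 (log2 -0.51, limma adjusted p = 0.0311), but relative to the median of all windows by that measure it stood at -0.19. Its highest fold enrichment was 27.7 to 39.1 in d22 and 33.5 to 62.3 in pbs.

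Slc10a1, the sodium-dependent uptake transporter (chromosome 12, 80953185 to 80968705, minus strand), had 96.4 to 137.8 CPM in d22 (median 104.7) and 83.6 to 98.7 in pbs (median 94.8). All 6 d22 libraries lay above the pbs median, and the lowest of them, d22 3, lay within the pbs range. The log2 difference of 0.22 ± 0.085 (SE) did not pass (edgeR adjusted p = 0.357, unadjusted 0.0218). Without d22 4 it was 0.14. Of the window's tags, 50.6% lay in a region over the start that reached 5315 to 6840 bp into the gene in d22 and 4397 to 6761 bp in pbs. In that region the level was 57.3 ± 9.49 CPM for d22 against 45.8 ± 3.67 for pbs (SD, n = 6 each; log2 difference 0.32 ± 0.10 SE, edgeR adjusted p = 0.174). There d22 4 had 75.9 CPM, the other d22 libraries 49.6 to 56.4, and pbs 40.0 to 50.2. Leaving out each library in turn gave 0.23 to 0.36 for the region. The other large region of the window lay at Srsf5, a splicing factor gene, with 43.3 ± 5.42 and 41.2 ± 3.73 CPM (SD, n = 6 each).

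Of the regulators, Nr1h4, which encodes FXR (chromosome 10, 89454234 to 89533645, minus strand), had the most fragmented pattern. Its window held 27 consensus regions, 4 of them called in all 12 libraries, and the libraries listed 9 to 25 peaks there in d22 and 13 to 18 in pbs. Tags were 95.8 to 127.2 CPM in d22 (median 107.8) and 92.6 to 133.3 in pbs (median 105.6), with a log2 difference of 0.03 ± 0.096 (SE, edgeR adjusted p = 0.935). A pair of strong regions held most of the signal. The first lay at the upper end of the gene, with 40.3 ± 2.41 and 36.1 ± 4.40 CPM, and the second, inside the gene over the start listed at 89506658, had 36.4 ± 3.74 and 39.3 ± 4.52 CPM (SD, n = 6 each). Neither passed (edgeR adjusted p = 0.547 and 0.730).

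Nr0b2, which encodes SHP (chromosome 4, 133553376 to 133556686, plus strand), lay under a broad region of 10186 bp that covered the whole gene. Its window had 32.4 to 78.2 CPM in d22 (median 46.1) and 40.9 to 75.7 in pbs (median 57.4). The spread within each group was wide, d22 4 was the highest of all, and the log2 difference of -0.20 ± 0.21 (SE) did not pass (edgeR adjusted p = 0.789). Without d22 4 it was -0.36 in the window and -0.45 in the broad region, against -0.22 there with all libraries, and without d22 6 it was -0.099 in the window, none of which passed. By fold enrichment it was lower in d22 (log2 -0.53, limma adjusted p = 0.0357), and relative to the median of all windows it stood at -0.21. The window also holds an end of Nudc, whose region had 8.58 ± 1.72 and 9.82 ± 0.309 CPM (SD, n = 6 each).

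**Figure D4:**
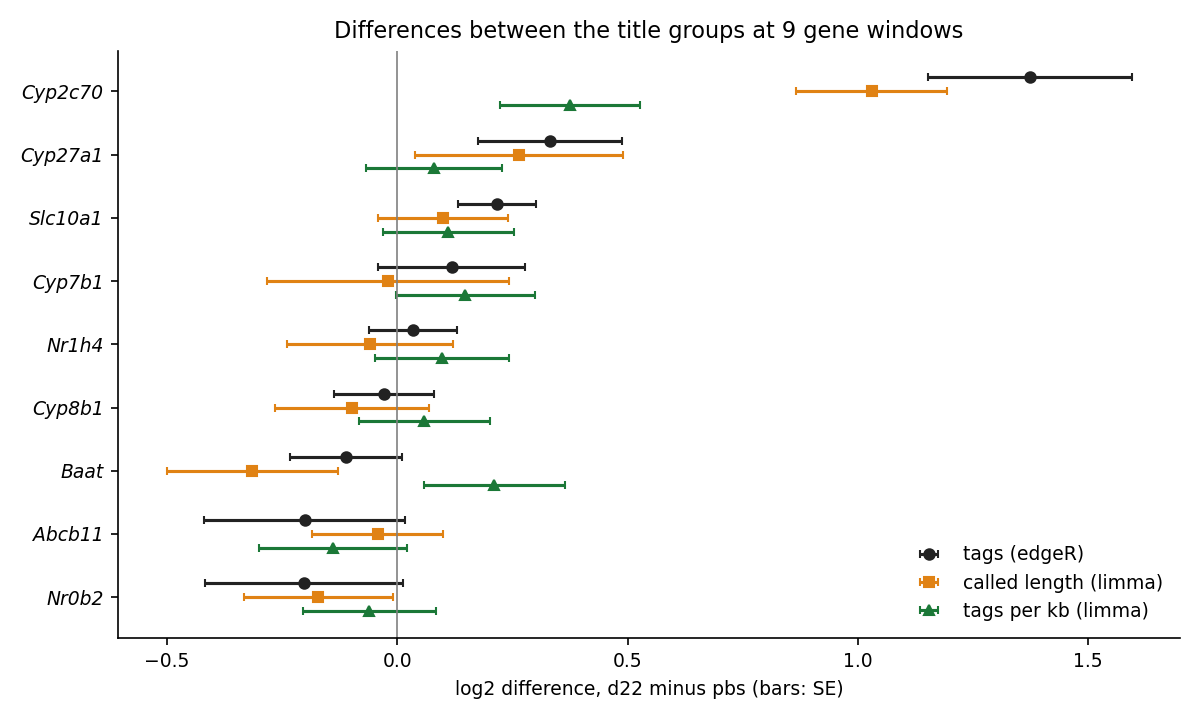
Log2 differences, d22 minus pbs, with SE, in tags, called length and tags per kb at the 9 windows called in all 12 libraries, ordered by the difference in tags. The tags of Cyp2c70 (1.37) stand furthest from 0 and are the only tested value drawn that passed, while the tags of the other 8 genes lie between -0.20 and 0.33.

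In all, the 10 windows held 72 consensus regions. Of these 18 were called in all 12 libraries, 4 in 11, 25 in 2 to 10 and 25 in a single library, 12 of the last in d22 4 alone. Of the 18 tested for tags, 1 passed in edgeR, that of Cyp2c70. Those described at Slc10a1, Cyp8b1 and Cyp27a1, all higher in d22, were the other 3 with an unadjusted p under 0.05 (edgeR). Over all 12375 tested regions, 1348 had an unadjusted p under 0.05 (edgeR). In called length and in tags per kb 0 of the 18 passed (limma), and in occupancy 0 of the 25 (Fisher's exact test, 0 at unadjusted p under 0.05).

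Levels of different genes can be set side by side only per length. In the principal region, the mean tags per kb of called peak (CPM per kb) over 12 libraries were 8.85 ± 1.32 (SD) at Slc10a1, 7.86 ± 0.993 at Cyp8b1, 7.77 ± 1.71 at Abcb11, 7.43 ± 2.31 at Baat and 6.71 ± 1.23 at Cyp27a1. They were 6.56 ± 1.28 (SD, n = 12) at Cyp7b1, 6.02 ± 0.985 at Nr1h4, 5.42 ± 1.38 at Nr0b2 and 4.61 ± 1.11 at Cyp2c70. Each gene differed from the next in this order by less than the SD of either, although in 4 of the 8 neighbouring pairs the upper gene exceeded the lower in 10 of 12 libraries (Slc10a1 and Cyp8b1, Baat and Cyp27a1, Cyp7b1 and Nr1h4, Nr0b2 and Cyp2c70), and in the other 4 pairs in 6 to 9. The median of all 12375 shared regions was 6.01. Slc10a1 stood at percentile 90.7 among them, Nr1h4 at 50.2 and Cyp2c70 at 26.1. The place of Nr1h4 rests on which of its strong regions was taken, as they held nearly equal tags. The region at its upper end, not ranked here, had 9.80 ± 1.56 CPM per kb in d22 and 8.72 ± 1.61 in pbs (SD). Slc10a1 had 9.07 ± 1.34 and 8.63 ± 1.38 (SD), so its top place holds only for the regions taken. Cyp2c70, the gene that differed, had the lowest density of the 9, and in d22 its mean was 5.22 ± 0.890 (SD, n = 6).

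**Figure D5:**
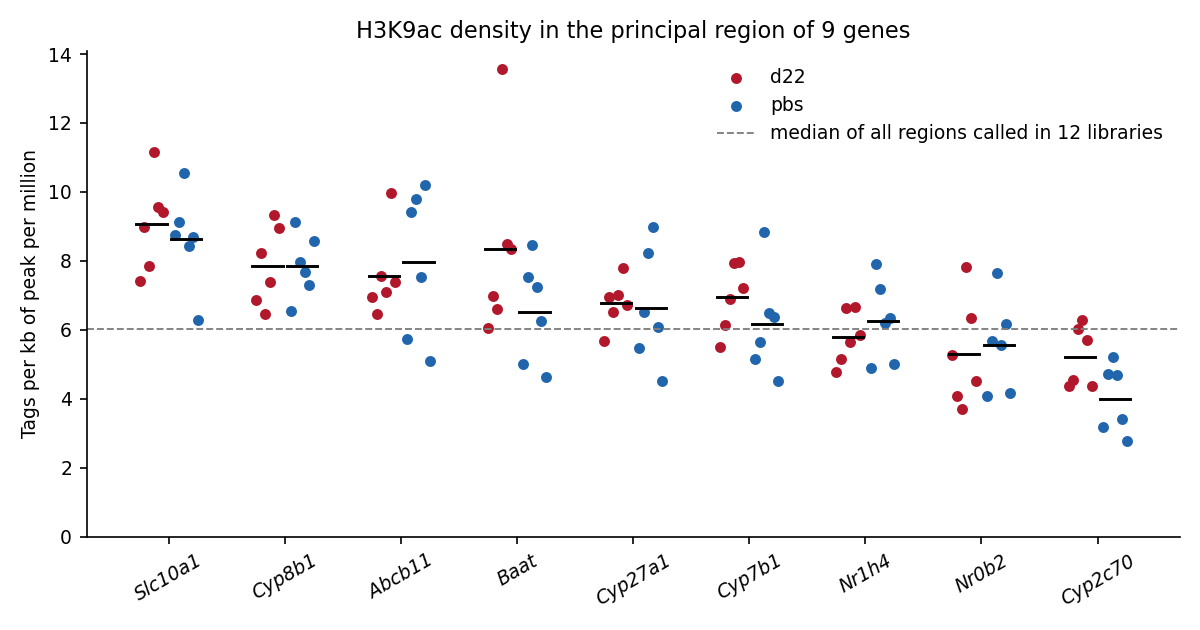
Tags per kb of called peak (CPM per kb) in the principal region of 9 genes, ordered by their mean over 12 libraries, with d22 in red, pbs in blue and black bars at the group means; the dashed line is the median of all shared regions (6.01). By this 1 region per gene, Slc10a1 is at the top with a mean of 8.85 and Cyp2c70 at the bottom with 4.61, and neighbours overlap. The denser region at the upper end of Nr1h4 is not drawn.

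A wider list of 57 genes of bile acid synthesis, conjugation, transport, control and cholesterol supply was read in the same way. It was drawn up with results of these data known and supports nothing by itself. Of the 57, 47 had a peak in all libraries, and of these 0 were higher and 1 was lower in d22, beside the 41 and 58 of all 12419 windows (edgeR, 0.797%). At an unadjusted p under 0.05 were 13 of the 47, beside 1339 of all windows, or 10.8%. Genes whose windows share peaks are counted separately, in the list as in all windows. Their median log2 difference was -0.09, with 29 of 47 negative, beside a median of 0.0052 and 48.6% negative over all windows.

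The gene that fell was Abcc3, which exports conjugates across the basolateral membrane. It had 10.9 to 27.1 CPM in d22 and 26.8 to 43.3 in pbs, on average 17.4 ± 5.33 and 36.2 ± 6.33 (SD, n = 6 each). The groups overlapped only by d22 1, the highest d22 library, and pbs 2, the lowest pbs library. The log2 difference was -1.05 ± 0.18 (SE, edgeR adjusted p = 0.0148), and each fit with 1 library left out still passed (highest edgeR adjusted p = 0.0471). It did not pass with 49 bp tags only (-1.0, edgeR adjusted p = 0.125) or in a window of 25 kb on either side (-0.38, edgeR adjusted p = 0.0778). Its log2 difference was -1.16 in called length and 0.07 in tags per kb.

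None of the other groups of the wider list had a gene that passed. Subgroups of this size are read here as values beside the 10.8% of all windows, with no test of a subgroup. Of 11 tested synthesis genes 3 had an unadjusted p under 0.05 (edgeR), with a median log2 difference of -0.14, and Slc27a2, an acyl-CoA synthetase of very long chain fatty acids and bile acid precursors, had the smallest p (-0.43 ± 0.11 SE, edgeR adjusted p = 0.102). Of 6 canalicular exporters 3 did, with a median of -0.35, led by Abcb4, the phospholipid flippase of bile (-0.50 ± 0.15 SE, edgeR adjusted p = 0.193). The others of these 3, Abcg8 and Abcg5, had nearly equal levels, 21.8 and 21.5 CPM in d22 and 29.9 and 29.3 in pbs. Their windows may hold the same peaks, so the same signal may count more than once. With 49 bp tags only Abcb4 was called lower in d22 (-0.76, edgeR adjusted p = 0.0436), as it and Slc27a2 were with library totals as the only scaling (edgeR adjusted p = 0.0154 and 0.0109). Of 4 conjugation and detoxification genes 3 did (median -0.62), of 18 regulators 1 (median -0.07) and of 5 cholesterol supply genes 2 (median -0.07). Among the last was Soat2, the cholesterol esterifying enzyme of liver and intestine, at 0.50 ± 0.16 (SE, edgeR adjusted p = 0.212). Library d22 4 had 47.8 CPM at Soat2 and the other d22 libraries 22.2 to 28.3, against 18.2 to 23.6 in pbs, and without d22 4 the difference was 0.32. The other 10 genes were not tested because some libraries listed no peak. Among them were the basolateral exporter subunits Slc51a, with no peak in any library, and Slc51b, with a peak in 1 d22 library, and the uptake carrier Slco1a1, with a peak in 4 d22 and 6 pbs libraries.

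The 3 genes whose window level went most like that of Cyp2c70 across the 12 libraries were Eif2b5, a subunit of a translation initiation factor, Zdhhc4, a palmitoyltransferase, and Tob2, an antiproliferative protein. Their Pearson r of log2 CPM was 0.905, 0.891 and 0.887 (n = 12), as a description picked from all windows. All 12 points share their group, depth and input, and within the 6 d22 and the 6 pbs libraries r was 0.69 and 0.68 for Eif2b5, 0.14 and 0.79 for Zdhhc4, and 0.25 and 0.55 for Tob2.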

How the data were processed

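H3K9ac ChIP-seq peak tables of 12 libraries (6 d22, 6 pbs) were analysed, and the 2 pooled inputs were not analysed here. The submitters' processing notes name CASAVA 1.8, Novoalign, MACS 1.4.2 and mm10. Per the file headers, each library was called alone at a p-value cutoff of 1e-05 against the pooled input of its title group. The deposited columns are the count of tags per peak (raw), the peak length in bp (another unit), a score (the negative log10 p-value times 10), fold enrichment as a ratio, and the false discovery rate in percent, all the authors' own values per peak. The bed files hold the same peaks and were left out.

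Tags, covered bp and fold enrichment were summed or averaged per gene window (RefSeq span of a protein-coding gene, GRCm38.p6, 10 kb on either side) and per consensus region (overlapping peaks of all libraries merged). A peak that reaches over a window's edge counts in full. A missing peak gives no count, so windows and regions were tested only with a peak in all 12 libraries. Tags were tested with edgeR 4.0.16 (R 4.3.3, TMM, robust quasi-likelihood, group only), log2 length and log2 tags per kb with limma 3.58.1, and occupancy in 2 to 10 libraries with Fisher's exact test, each with Benjamini-Hochberg adjustment over the whole table at 0.05. SEs of edgeR are the log2 difference over the root of F. TMM factors were found separately for windows and for regions, and single peaks were scaled as windows. DESeq2 1.42.0, other scalings, windows and peak filters, a replicate block and left-out libraries were alternatives, and the restriction to 49 bp tags and occupancy over windows were added after the data were seen. The tests were checked on simulated data. No pair of libraries was a duplicate (chi-square per degree of freedom 3.37 to 15.2 over 66 pairs).

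The 10 genes and all lists were chosen with earlier results of these data known. All 10 are described. Of the wider list, genes that passed and the 3 with the smallest p are named, and for a gene that passed, the 3 with the highest Pearson r that share no peak with it, without predicted genes. For Cyp7a1 no such r could be computed. Markers of lymphocytes (4 genes, 0 to 4.00 CPM in d22 and 0 to 1.27 in pbs), neutrophils (4 genes, 0 to 4.64 and 0) and intestine (3 genes, 6.89 to 13.4 and 4.92 to 8.94), and 5 biliary markers (12.9 to 23.7 and 13.0 to 17.0, Sox9 alone) were read too, with 0 passing (edgeR, 0 at unadjusted p under 0.05). The highest d22 sum of each of these lists was that of d22 4. Promoter sequences are from RefSeq; Cyp7a1, Cyp7b1 and Baat are not in that table.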

Additional observations from a re-analysis of the deposited data

Results flagged for a closer look

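Of 54 groups of 6 values (3 measures of 9 windows in each title group), 3 held a library far from the other 5 by Dixon's test, where chance gives about 1 in 20. The called length of Cyp27a1 in d22 6 was 4563 bp, and the nearest other d22 library had 7746 bp. The CPM of Slc10a1 in d22 4, the library with the fewest tags and most peaks, was 138, and the nearest was 109. The called length of Nr0b2 in pbs 5 was 12657 bp, and the nearest was 10361 bp.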

How the results depend on the processing

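The tag difference of Cyp2c70 kept its sign under all alternatives run, and its window lost its call by fold enrichment (0.01) and with 49 bp tags only (1.03). Of the other 8 windows, Abcb11 and Nr0b2 passed by fold enrichment and none passed elsewhere. Slc27a2 passed with DESeq2 (-0.42) and Soat2 in a window of 25 kb (0.65). On leaving out a library Slc27a2 also passed in some fit (edgeR adjusted p = 0.0414 to 0.232). The count of windows passing in tags, 99 (41 higher), was 263 with DESeq2 (98 higher), 262 with library totals as the only scaling (10 higher), 46 with the replicate block, 19 with 49 bp tags only (12 higher), 3367 by fold enrichment (139 higher), and 25 to 125 on leaving out 1 library, lowest without pbs 4 and highest without d22 4 (65 without d22 1, 48 without d22 2 or pbs 2, 44 without d22 6, 53 without pbs 3 and 35 without pbs 5). The count of regions, 124 (56 higher), was 272 with DESeq2, 454 with library totals (26 higher), 39 with 49 bp tags only (26 higher), 127 with the replicate block and 65 to 149 on leaving out 1 library (70 without d22 2 or pbs 5, 71 without d22 6, 77 without pbs 2, 74 without pbs 3 and 65 without pbs 4). For called length the count of 0 became 1 with the replicate block and 0 to 1 on leaving out 1 library. For tags per kb it became 9 with library totals and stayed 0 on leaving out any library, as it did for occupancy. Other filters and windows stayed within 1.5 times the counts. Library totals moved the median of all windows by -0.20 (log2). The replicate numbers share only a name: deviations of libraries of 1 number correlated at -0.075 to 0.214, and only numbers 2 and 5 correlated best with their own. In the replicate block fit Cyp2c70 was at 1.39.

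Values that were not called and turned sign, all log2, were these. By fold enrichment: Cyp27a1 -0.31, Slc10a1 -0.15 and Nr1h4 -0.18. In a window of 1 kb: Baat 0.052. With library totals: tags of Cyp7b1 -0.080 and its region -0.10, Nr1h4 -0.15 and a pair of its regions -0.071 and -0.070, the Srsf5 region of Slc10a1 -0.15, and tags per kb of Cyp8b1 -0.15, Cyp7b1 -0.062, Cyp27a1 -0.13, Slc10a1 -0.10 and Nr1h4 -0.11. With peaks of a score of at least 100: the Cyp7b1 region -0.15 and an outer Nr0b2 region 0.11. With the replicate block: the Baat region 0.012. With 49 bp tags only: Cyp8b1 tags 0.033, the Srsf5 region -0.018, length of Cyp8b1 0.051, Cyp7b1 0.26 and Nr1h4 0.13, and tags per kb of Cyp8b1 -0.036, Cyp7b1 -0.071, Slc10a1 -0.071, Nr1h4 -0.11 and Baat -0.042. On leaving out 1 library, tags ranged from -0.07 to 0.026 at Cyp8b1, -0.0092 to 0.10 at Nr1h4 and -0.077 to 0.086 in the Baat region. Length ranged from -0.13 to 0.035 at Abcb11, -0.22 to 0.12 at Cyp7b1 and -0.17 to 0.030 at Nr1h4, and tags per kb from -0.025 to 0.18 at Cyp27a1, -0.025 to 0.13 at Cyp8b1 and -0.14 to 0.017 at Nr0b2. The cause was not tested. Tags outside called peaks are not in the tables, so a level below the calling threshold, as for most libraries at Cyp7a1, has no value.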

Other observations

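Cyp2c70 lies at one end of a cluster of related Cyp2c genes, and the windows of its nearest relatives were almost bare of called H3K9ac. Cyp2c50, which ends 39.4 kb away, had a peak in 1 d22 and 2 pbs libraries, Cyp2c54, 79.5 kb away, in 0 and 1, and Cyp2c37, 141.1 kb away, in 1 and 0. Further along, Cyp2c69, Cyp2c40, Cyp2c66 and Cyp2c65 had none in any library. Peaks in some libraries were listed for Cyp2c68 (1 d22 and 2 pbs), Cyp2c67 (3 and 3), Cyp2c38 and Cyp2c39 (2 and 2 each) and Cyp2c55 (0 and 2). The only other Cyp2c windows on chromosome 19 with a peak in all 12 libraries were those of Cyp2c29, with 10.2 ± 3.61 CPM for d22 against 7.84 ± 2.79 for pbs (SD, n = 6 each; log2 difference 0.41 ± 0.30 SE, edgeR adjusted p = 0.682), and Cyp2c23, with 11.9 ± 5.53 and 10.0 ± 3.29 CPM (SD, n = 6 each; 0.25 ± 0.30 SE, edgeR adjusted p = 0.821). Reads that match several of these similar genes may have been counted for another or left out, so their values are uncertain. These genes were looked up after the result at Cyp2c70 was known.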
